A study of Mus musculus with 8 samples.

Results

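The 35 genes described here form the core cell cycle machinery: proliferation and mitosis genes, cyclins, cyclin-dependent kinases (CDKs), CDK inhibitors, subunits of the MCM helicase, other replication genes, and the E2F and RB genes. They were taken by name, 35 of 21887 protein-coding genes of the mouse, with no threshold on a measured value. The data are their called peaks of open chromatin in natural killer (NK) cells, the cytotoxic innate lymphocytes, read by ATAC-seq, an assay whose transposase cuts and tags accessible DNA. A peak was given to the gene whose end, at either side, was nearest to the peak's midpoint, up to 50 kb away. The genes held 111 of the 50044 consensus regions, which are merged peaks called in at least 2 libraries.

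The MUT group was 4 mice with the allele HSF1-S303/7A, in which alanine replaces the serines at residues 303 and 307 of the heat shock transcription factor HSF1 (replicates 26, 27, 28 and 29). The WT group was 4 mice wild-type for HSF1 (replicates 4, 5, 6 and 7). All 8 were unchallenged, and spleen cells of each mouse were enriched with DX5 beads and sorted as CD49b+ CD3e- cells, of which 200000 entered the assay. Strain, age, sex and any limit of the allele to some cells are not given in the labels used here, so any such difference between the mice cannot be told apart from the genotype. The comparison addresses whether open chromatin at cell cycle genes of resting NK cells differs with this HSF1 allele.

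A cell enters the cycle when D-type cyclins with CDK4 and CDK6 phosphorylate RB, which releases E2F factors that drive the genes of DNA replication. Cyclin E and cyclin A with CDK2 then carry the cell through DNA synthesis, and cyclin B with CDK1 through mitosis, while CDK inhibitors hold these kinases back. Most splenic NK cells of unchallenged animals are not dividing, and quiescent cells hold many of these genes silent through RB-family and DREAM complexes, which bind E2F and CHR sites of their promoters.

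The lists held 44333 to 49627 peaks in MUT and 42695 to 46102 in WT, and no read counts, so the sequencing depth is unknown. Where a list has no peak, none was called, which does not measure closed chromatin. Each peak has an unnamed positive score, the authors' own value, which was turned into a percentile within its list. Markers of NK cells had a peak within 1 kb of a gene end in 8 of 8 libraries for 10 of 10 genes. The same held for 5 of 8 T cell, 1 of 8 B cell, 1 of 7 myeloid and 3 of 7 erythroid and platelet markers. The T cell markers Cd4, Cd8a and Cd8b1 had no such peak in any library, while Cd3e, Cd3d, Cd3g, Cd5 and Cd28 had one in all 8. Of the myeloid markers Cd14 had one in all 8 and the other 6, Lyz2 and Csf1r among them, in none. Mean score percentiles of the gene-end peaks ran from 8.59 (Tbx21) to 94.6 (Ncr1) for the NK markers. For the 5 T cell markers they ran from 40.1 (Cd3g) to 95.6 (Cd28). In the length test described below 1 of the 10 NK markers passed and no other marker did. The summed peak length of the B cell markers was 2630 to 4207 bp in MUT and 2124 to 2971 bp in WT, that of the T cell markers 7539 to 8997 bp in MUT and 6881 to 7743 bp in WT. Their part in the results below was not tested. The libraries are bulk samples, in which fewer cells with an open site and less opening per cell cannot be told apart.

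The cell cycle genes carried peaks at their ends in resting NK cells of both genotypes. A gene-end peak, one within 1 kb of either end, was called in 8 of 8 libraries for 30 of the 35 genes (85.7%), against 44.0% of all protein-coding genes. Over the genes that entered the test below, which had peaks in 2 or more libraries, the shares were 88.2% for the cell cycle genes and 67.6% for all. Medians were taken over the genes with a gene-end peak in all 8 libraries, 30 cell cycle genes and 9640 of all genes. The median score percentile of the strongest gene-end peak was 81.0 for the cell cycle genes and 77.4 for all. The median width of the widest gene-end peak was 749 bp against 764 bp. Genes with little called chromatin beyond their ends were common: 16 of the 34 genes with a consensus region (47.1%) had none farther than 1 kb from an end, against 31.7% of all such genes. The cell cycle genes that entered the test were also shorter, with a median gene length of 14106.5 bp against 23252 bp. The part of gene length in this share was not tested. These shares are descriptions of a list and carry no test.

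The ends with the highest percentiles belonged to Ccna2, the cyclin of DNA synthesis and early mitosis, at a mean of 99.5 over the 8 libraries, and to Rrm1, the large subunit of ribonucleotide reductase, at 99.4. Mcm3 followed at 96.1, E2f3 at 95.2, E2f1 at 93.6, Ccnb2 at 91.4, Mcm6 at 89.4 and Cdk1 at 87.2. Among the 30 genes with a gene-end peak in every library the lowest were Mcm7 at 14.9, Mcm2 at 16.3, Aurkb at 42.1 and Ccnd2 at 45.0. The value of Mcm7 leaves out the peaks over its promoter windows, described with the helicase genes. The end peaks of Cdk6 and E2f2, called in 6 and 2 libraries, stood lower still, at 0.417 and 9.23. Genes that act together thus stood far apart on this scale: the helicase subunits Mcm3 and Mcm2 were near the top and the bottom of the lists. The nearest end of Bbs7 lies 104 bp from the end of Ccna2 at the higher coordinate, and that of Cds2 158 bp from Pcna.

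**Figure D1:**
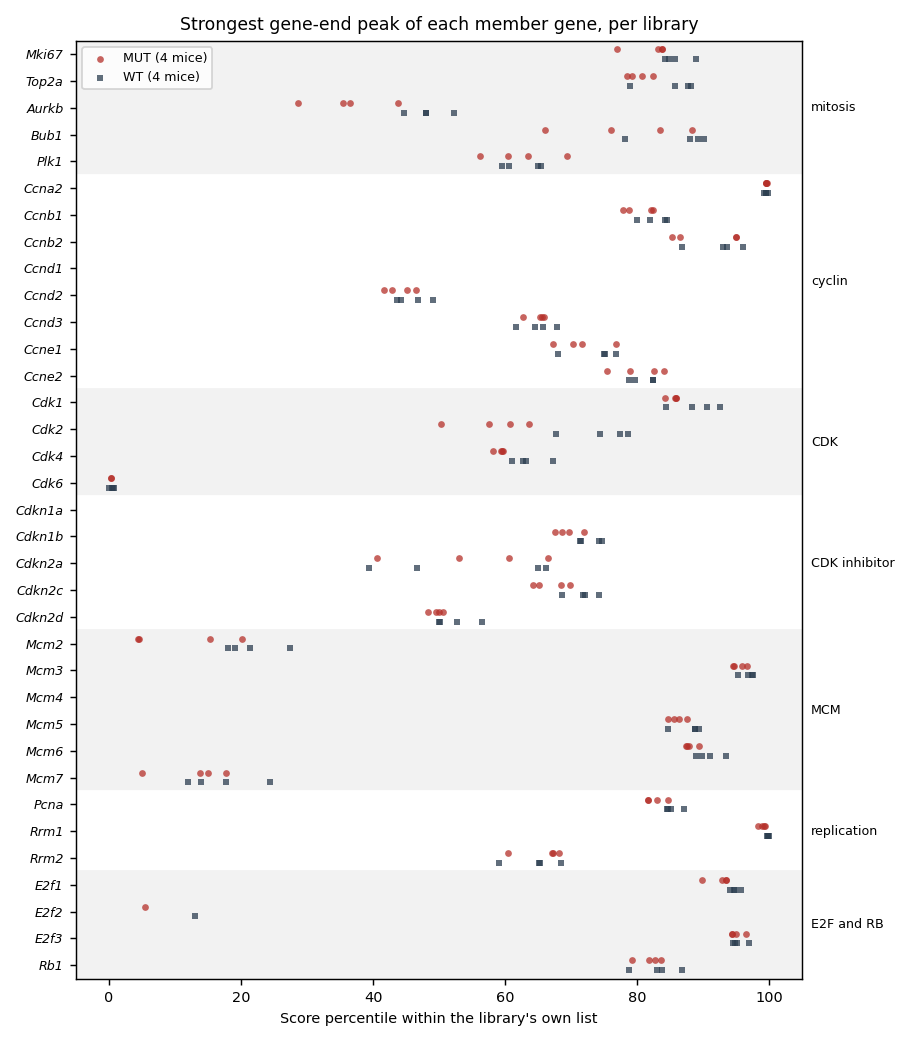
Score percentile of the strongest gene-end peak of each cell cycle gene (x axis, percentile within the library's own list) in the 4 MUT mice (circles) and 4 WT mice (squares), with genes grouped by role. Rrm1 and Ccna2 lie at 98.3 or higher in every library and Mcm2 and Mcm7 at 27.4 or lower, and Cdk2 has the largest difference between the group means, 58.0 in MUT and 74.5 in WT.

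The promoters of 6 genes are printed to show what lies under these peaks. They were the gene with the highest mean percentile in each of 6 roles among those whose window lay under a peak in all 8 libraries and held an E2F-type, CHR or CCAAT motif. Each window runs from 250 bases before to 50 bases after the annotated start and is written 5′ to 3′ on the strand of the gene, from RefSeq (GRCm38.p6). Capitals mark matches to the E2F-type letters TTTCCCGC, TTTGGCGC, TTTGCCGC or TTTCGCGC, to the CHR letters TTTGAA or TTCGAA, and to CCAAT, on either strand.
Rrm1 (chr7:102441445-102441744, plus strand): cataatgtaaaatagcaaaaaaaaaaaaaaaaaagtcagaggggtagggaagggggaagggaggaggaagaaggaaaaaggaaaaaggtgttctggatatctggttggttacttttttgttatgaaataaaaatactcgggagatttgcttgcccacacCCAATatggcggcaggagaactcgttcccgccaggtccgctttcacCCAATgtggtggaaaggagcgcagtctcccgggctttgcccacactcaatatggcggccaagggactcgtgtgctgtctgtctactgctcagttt
Mcm3 (chr1:20820263-20820562, minus strand): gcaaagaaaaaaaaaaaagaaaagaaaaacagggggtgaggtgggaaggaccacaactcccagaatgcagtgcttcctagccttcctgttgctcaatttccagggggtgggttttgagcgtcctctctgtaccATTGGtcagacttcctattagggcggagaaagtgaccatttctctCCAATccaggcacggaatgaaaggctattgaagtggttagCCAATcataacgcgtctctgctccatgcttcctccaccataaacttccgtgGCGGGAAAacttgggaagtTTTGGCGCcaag
E2f3 (chr13:29986014-29986313, minus strand): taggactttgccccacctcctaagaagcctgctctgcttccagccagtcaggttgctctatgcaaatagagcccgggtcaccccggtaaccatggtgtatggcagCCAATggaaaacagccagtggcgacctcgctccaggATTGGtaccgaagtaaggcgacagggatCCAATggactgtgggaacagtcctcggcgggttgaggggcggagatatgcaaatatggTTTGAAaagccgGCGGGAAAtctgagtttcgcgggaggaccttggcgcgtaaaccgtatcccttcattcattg
Ccnb2 (chr9:70421505-70421804, minus strand): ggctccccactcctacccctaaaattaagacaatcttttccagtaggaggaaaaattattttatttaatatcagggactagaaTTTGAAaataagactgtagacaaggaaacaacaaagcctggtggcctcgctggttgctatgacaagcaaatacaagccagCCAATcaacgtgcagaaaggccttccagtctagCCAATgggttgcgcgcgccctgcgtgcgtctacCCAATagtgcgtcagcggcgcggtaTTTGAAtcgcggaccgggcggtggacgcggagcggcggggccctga
Cdk1 (chr10:69352863-69353162, minus strand): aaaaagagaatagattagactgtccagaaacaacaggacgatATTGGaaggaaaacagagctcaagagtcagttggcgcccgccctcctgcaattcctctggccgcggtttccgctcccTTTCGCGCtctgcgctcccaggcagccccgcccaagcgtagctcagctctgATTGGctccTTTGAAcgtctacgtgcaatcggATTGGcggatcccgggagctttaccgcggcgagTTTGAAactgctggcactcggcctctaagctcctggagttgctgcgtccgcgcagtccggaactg
Mki67 (chr7:135716330-135716629, minus strand): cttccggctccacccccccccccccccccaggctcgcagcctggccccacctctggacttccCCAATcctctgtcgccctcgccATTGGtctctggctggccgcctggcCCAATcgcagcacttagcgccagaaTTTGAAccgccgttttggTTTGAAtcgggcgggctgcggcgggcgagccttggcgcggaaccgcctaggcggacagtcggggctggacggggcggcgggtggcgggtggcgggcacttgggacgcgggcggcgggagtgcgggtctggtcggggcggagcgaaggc

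The printed windows differed in which motifs they held. Mcm3 had 2 E2F-type matches, both just after the start, and 3 CCAAT matches, while Ccnb2 and Mki67 had 2 CHR matches and 3 CCAAT matches each and no E2F-type match. Cdk1 and E2f3 held all 3 kinds, and Rrm1 had 2 CCAAT matches alone. RefSeq windows were at hand for 28 of the 35 genes, 35 windows in all. A peak was called over 30 of these windows (85.7%) in all 8 libraries, against 47.2% of 21263 windows of protein-coding genes.

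Among windows under a peak in all 8 libraries, E2F-type letters were in 8 of 30 windows of the cell cycle genes (26.7%), against 4.67% of 10046 windows of all genes. CHR letters were in 30.0% against 12.9%, and CCAAT, the site of the factor NF-Y, in 73.3% against 38.9%. The spaced heat shock letters GAANNTTC, part of the element that HSF1 binds, were in 4 of the 30 windows (13.3%), against 5.27%. Those 4 belonged to Ccnd3 (the second of its windows), Mcm5, Pcna and Top2a. The share of G and C was alike, 61.7% against 62.3%. A match is a run of letters and not a bound site, and 6 of the 86 matches overlapped a match of another motif.

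**Figure D2:**
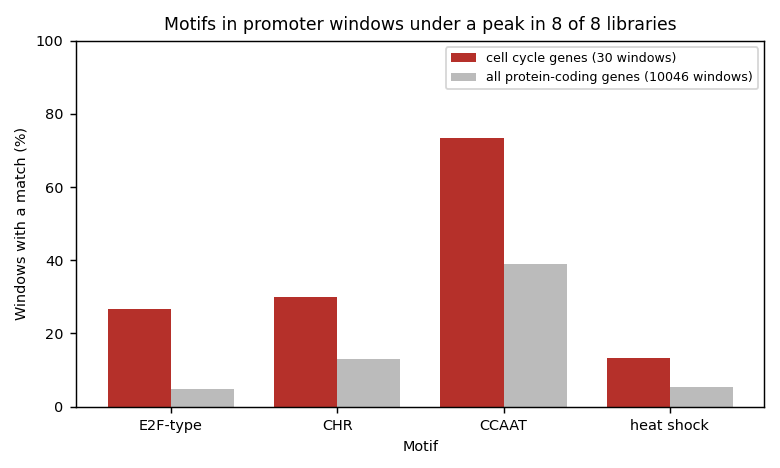
Percent of promoter windows (y axis) with at least 1 match to each motif, for windows under a peak in 8 of 8 libraries: cell cycle genes (dark bars, 30 windows) and all protein-coding genes (light bars, 10046 windows). E2F-type letters were in 26.7% of the cell cycle windows and 4.67% of all.

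Between the genotypes, accessible length per gene was compared as the summed width of linked peaks, scaled to the median library, on log2(bp + 200) by limma over those 14259 genes. Of the cell cycle genes 34 were tested and 1 passed an adjusted p of 0.05, Mcm3, which was higher in MUT. Over all genes 96 passed (0.673%), of which 63 (0.442%) were higher and 33 lower in MUT. Without scaling that split was 63 to 19. With the strongest 30000 peaks of each list it turned: 120 genes passed, 49 higher and 71 lower in MUT. An unadjusted p under 0.05 was found for 5 of the 34 genes (14.7%), against 11.2% of all genes. The log2 difference was above 0 for 10 of the genes and below 0 for 24, with a median of -0.041, and over all genes it was above 0 for 6006 and below 0 for 8253, with a median of -0.019. Without scaling 18 of the 34 lay below 0.

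The scaled lengths of the 2 genotypes did not overlap for 7 of the 34 genes, against 6.77% of all genes. Mcm3 lay above in MUT, and Ccnd1, E2f3, Cdk6, Ccnb1, Cdk2 and Aurkb below. On the lengths as deposited only Mcm3 and Ccnd1 were without overlap, and the share of all genes was not taken for those lengths. The summed length of the cell cycle genes was 56769 ± 3339 bp in MUT and 56613 ± 1250 bp in WT (SD, n = 4 each), or 0.289% and 0.296% of all linked length. MUT replicate 29 had the shortest sum, 52377 bp, and MUT replicate 27 the longest, 60486 bp, which were also the libraries with the least and the most linked length over all genes.

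**Figure D3:**
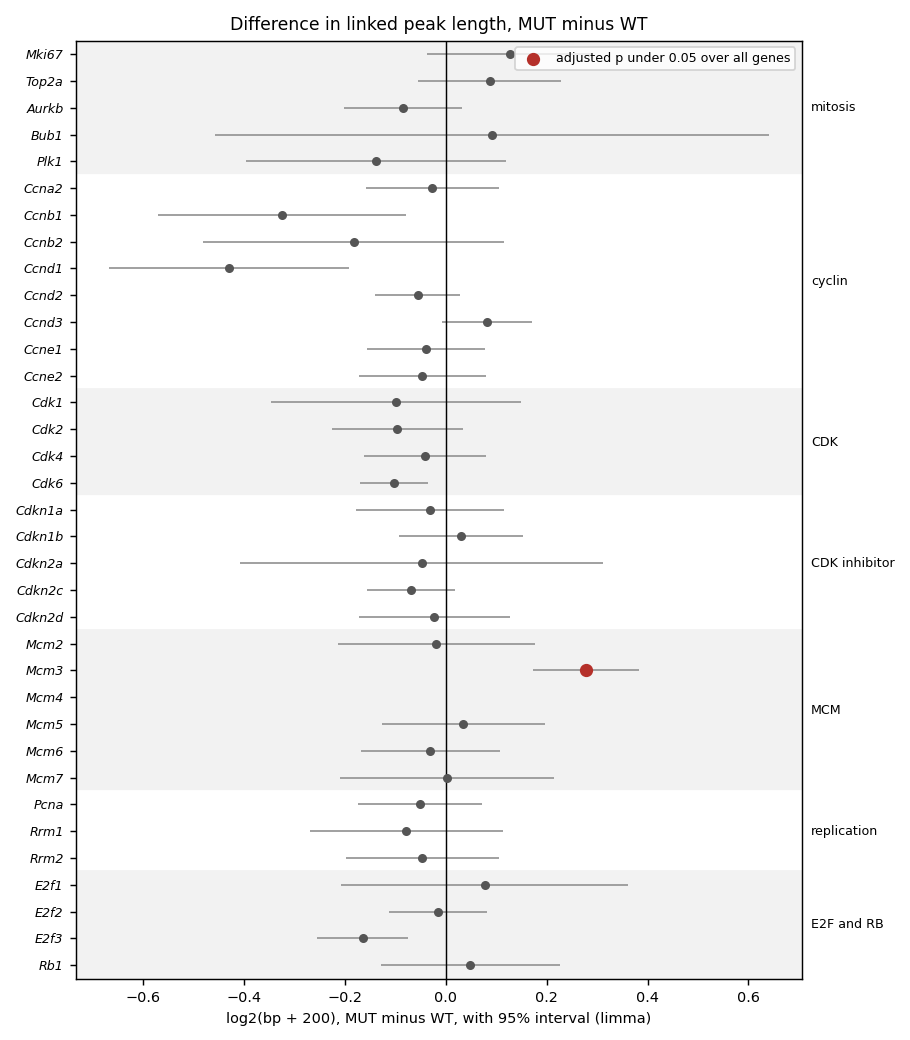
Difference in linked peak length for each cell cycle gene (x axis, log2(bp + 200), MUT minus WT, with the 95% interval of limma), grouped by role. Mcm3 at 0.28 is the gene past the threshold, Ccnd1 at -0.43 has the lowest estimate, and Mcm4 has no linked peak and no value.

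The MCM subunits form the ring helicase that unwinds DNA at replication forks. Mcm3 had 1040, 1071, 994 and 941 bp of linked peaks in the MUT mice, against 796, 771, 768 and 771 bp in the WT mice. All 4 MUT values lay above all 4 WT values (log2 difference 0.28, SE 0.0459, limma adjusted p = 0.0430). The difference came from a second peak 4959 bp from the start of the gene (chr1:20825129-20825413), between genes, which was called in 4 of 4 MUT lists and in 0 of 4 WT lists. That peak covered 285, 267, 229 and 215 bp and was weak, at percentiles 27.2, 14.1, 3.88 and 17.4 of the MUT lists. The peak over the start itself (chr1:20819811-20820623) was at percentile 95.4 ± 1.01 in MUT and 96.7 ± 1.05 in WT (SD, n = 4 each), a difference of -1.28 points (limma adjusted p = 0.374).

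Mcm3 is the 1 cell cycle gene with a region of a single genotype, 1 of 111 regions, where 0.761% of all consensus regions were called in 4 of 4 libraries of one genotype and 0 of 4 of the other. The call of Mcm3 did not hold when a library was left out: the adjusted p was 0.0693 to 0.126 over the 8 such fits. With the strongest 30000 peaks of each list the second peak was lost and the log2 difference was -0.025 (limma adjusted p = 0.822).

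The other 4 tested helicase subunits showed no difference past the threshold. Mcm5 and Mcm6 had gene-end peaks at mean percentiles 87.0 and 89.4, and log2 differences of 0.034 and -0.031. Mcm6 and Mcm2 turned from below to above 0 without scaling. Mcm2 had 369, 461, 327 and 339 bp in MUT and 363, 392, 348 and 373 bp in WT, from 1 weak peak per library. Mcm7 had 299, 273, 277 and 269 bp in MUT and 264, 278, 277 and 266 bp in WT, the shortest length of the tested genes. In both the groups overlapped. An end of Ap4m1 lies 90 bp from an end of Mcm7, and the peaks over the Mcm7 promoter windows, at mean percentiles 59.3 and 63.2, were nearer to Ap4m1 and were given to it. Mcm4 had no linked peak in any library for the same reason: an end of Prkdc lies 44 bp from one of its own, and the peak there, up to percentile 82.9, was given to Prkdc in 8 of 8 libraries. Lengths of Mcm4 and Mcm7 by nearest gene end thus leave out peaks close to both genes of each pair.

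**Figure D4:**
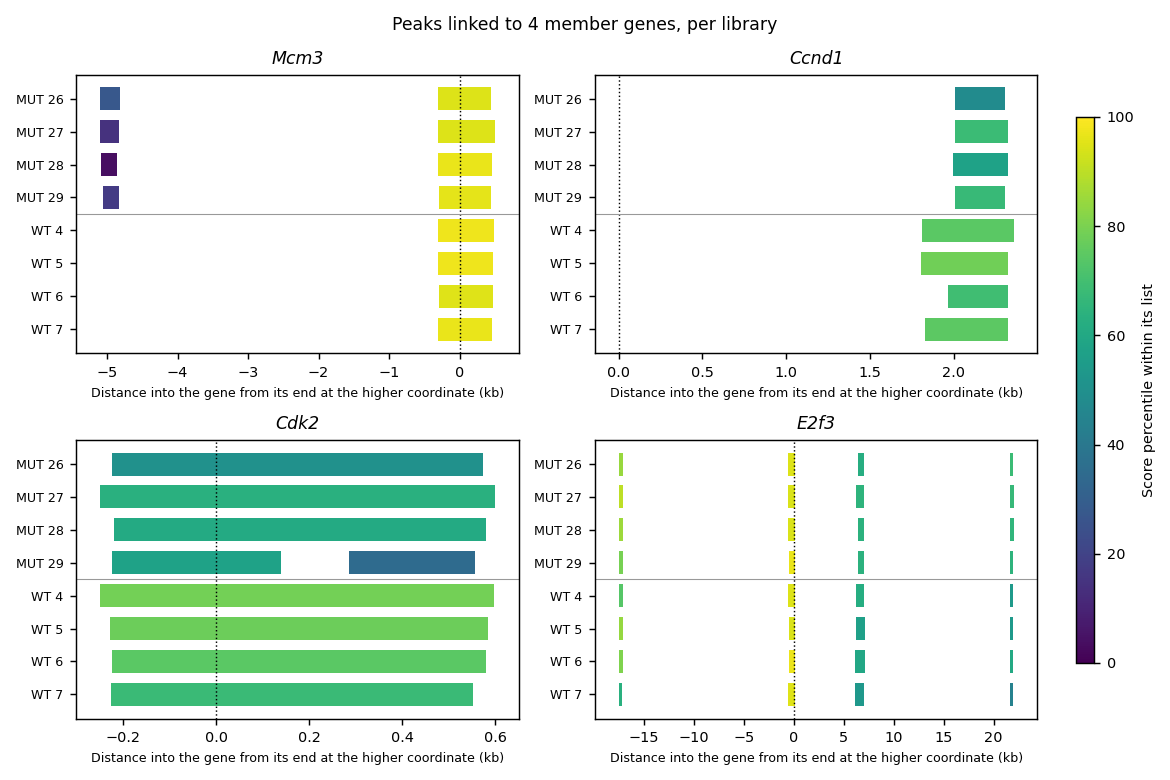
Peaks linked to Mcm3, Ccnd1, Cdk2 and E2f3 in each library (MUT rows above WT rows), drawn to scale by distance into the gene from its end at the higher coordinate (x axis, kb, negative outside the gene), and coloured by score percentile within the list. The second Mcm3 peak is drawn in the MUT rows alone, the Ccnd1 peak is shorter in MUT, and the Cdk2 peak of MUT replicate 29 is split in 2.

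Among the cyclins, 1 of 8 genes had a log2 difference above 0 and 7 below, with a median of -0.051, and none passed (Ccna2 lay above 0 without scaling). Ccnd1, a D-type cyclin, had 298, 320, 328 and 298 bp in MUT and 547, 520, 359 and 497 bp in WT. All MUT values were below all WT values, with WT replicate 6 nearest to them. The log2 difference was -0.43 (SE 0.104, limma adjusted p = 0.158). This length was a single peak in the gene body (chr7:144937475-144938026), 2081 bp from the nearest end, and no library had a peak at the ends of Ccnd1. Its percentile was 47.9, 68.0, 57.5 and 67.2 in MUT and 74.3, 78.2, 69.2 and 74.9 in WT, again without overlap (difference -14.0 points, limma adjusted p = 0.130). Its width difference was -0.61 on the log2 scale (limma adjusted p = 0.237). Without WT replicate 6 both the length (-0.52, limma adjusted p = 0.0485) and the width (-0.75, limma adjusted p = 0.0226) passed.

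The other D-type cyclins had many more peaks. Ccnd3 had 4569, 5068, 4539 and 4505 bp in MUT and 4146, 4522, 4358 and 4107 bp in WT, a log2 difference of 0.081 (limma adjusted p = 0.497) with overlap between MUT replicate 29 and WT replicate 5. Its 9 regions included one in the gene body at mean percentile 90.7 (chr17:47521368-47521908), 16587 bp from the start, above the 64.9 of its own start. The second RefSeq promoter window of Ccnd3 (chr17:47593217-47593516) was covered in 8 libraries at 38.1. That peak is not among the 9 regions, so the lengths of Ccnd3 leave it out. Ccnd2 had a log2 difference of -0.056 (limma adjusted p = 0.626), from 6 or 7 peaks per library.

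The E-type cyclins, partners of CDK2, differed in layout. Ccne2 had 1 peak per library, at its end with the lower coordinate. Ccne1 had 4976, 5404, 5064 and 4368 bp in MUT and 5247, 4730, 4666 and 5166 bp in WT, with full overlap (log2 difference -0.040, limma adjusted p = 0.821). Its 9 regions included 8 between genes, of which the one at chr7:38094305-38094925 had a mean percentile of 88.6, above the 72.6 of its start.

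The mitotic cyclins each had their peaks at an end of the gene. Ccnb1 had 731, 770, 891 and 490 bp in MUT and 950, 884, 900 and 915 bp in WT. MUT replicate 29 was the lowest and MUT replicate 28 overlapped the WT range before scaling (log2 difference -0.33, SE 0.108, limma adjusted p = 0.293). Ccnb2 had 540, 546, 521 and 520 bp in MUT and 759, 509, 478 and 752 bp in WT. The WT values fell in 2 pairs on either side of the MUT values (log2 difference -0.18, limma adjusted p = 0.643). Ccna2 was the steadiest gene by width, at 609, 609, 614 and 609 bp in MUT and 614, 608, 604 and 609 bp in WT.

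All 4 CDK genes had log2 differences below 0, with a median of -0.098, with and without scaling below 0, and none passed. Cdk6, a partner of the D-type cyclins, was the gene with the most linked length, 6533, 7278, 6526 and 6109 bp in MUT and 6921, 7300, 6853 and 6585 bp in WT. Before scaling the groups overlapped, and after it MUT lay below WT (log2 difference -0.10, SE 0.0293, limma adjusted p = 0.236). It had 14 regions, 13 of them farther than 1 kb from an end. The region with the highest percentile, 84.0, lay 39821 bp before the annotated start (chr5:3300751-3301615). The annotated start itself had a peak in 6 of 8 libraries, 2 of them MUT and 4 WT, at a mean percentile of 0.417, while the RefSeq promoter window inside the gene was covered in 8 at 63.8.

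Cdk2, the kinase of the E- and A-type cyclins, had 797, 850, 800 and 634 bp in MUT and 848, 813, 804 and 778 bp in WT (log2 difference -0.096, limma adjusted p = 0.589). The percentile of its start peak (chr10:128704452-128705301) was 50.3, 63.6, 60.7 and 57.5 in MUT and 78.6, 77.4, 74.4 and 67.6 in WT. All MUT percentiles were below all WT percentiles, with a difference of -16.5 points (limma adjusted p = 0.0606), the lowest p of the regions of the cell cycle genes. The start peak of Cdk2 passed with the strongest 30000 peaks of each list (-26.8 points, limma adjusted p = 0.0188). Percentiles were taken anew within those 30000 peaks, so these points are on another scale than the -16.5. Cdk1, the mitotic kinase, and Cdk4 had start peaks at 85.4 ± 0.815 and 59.2 ± 0.673 in MUT, against 88.9 ± 3.50 and 63.6 ± 2.62 in WT (SD, n = 4 each), with limma adjusted p-values of 0.262 and 0.312.

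The CDK inhibitors had 1 gene above 0 and 4 below, with a median of -0.032, and the lowest adjusted p was 0.564, for Cdkn2c. Without scaling Cdkn1a and Cdkn2d lay above 0 too. Cdkn1a, which encodes the inhibitor p21, had 2267, 2402, 2139 and 2407 bp in MUT and 2308, 2389, 2383 and 2107 bp in WT, and the groups overlapped. No peak was called at the ends of Cdkn1a in any library. A RefSeq promoter window inside the gene (chr17:29093519-29093818) was covered in 8 libraries at a mean percentile of 24.9. Its regions called in all 8 libraries were a pair in the gene body, led by chr17:29094293-29095797 at mean percentile 74.6, and one 11882 bp before the start at 65.5. Cdkn1b, which encodes the inhibitor p27, had 8 regions, led by its start at 71.2, and a log2 difference of 0.030. Cdkn2a, which encodes p16 and the ARF protein, had 1219, 1398, 1492 and 1406 bp in MUT and 1721, 999, 1261 and 1700 bp in WT. The groups overlapped, with WT replicates 4 and 7 above every MUT value and WT replicate 5 below. Cdkn2d had a weak region at its far end (chr9:21288543-21288992, mean percentile 6.45) whose width was 0.18 higher in MUT on the log2 scale (limma adjusted p = 0.283). An end of the gene Kri1 lies 490 bp from that end of Cdkn2d.

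Of the mitosis genes 3 lay above 0 and 2 below, with a median of 0.087. Mki67, which encodes the proliferation marker Ki-67, had 1748, 1746, 1686 and 1343 bp in MUT and 1619, 1365, 1368 and 1376 bp in WT. MUT replicate 29 was the lowest of all and WT replicate 4 lay apart from the other WT mice (log2 difference 0.13, limma adjusted p = 0.573). Its strongest region was not the start, at 83.9, but one 19468 bp before it (chr7:135735628-135736208) at a mean percentile of 92.4.

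Bub1, a kinase of the spindle checkpoint, had 947, 585, 386 and 489 bp in MUT and 420, 449, 835 and 427 bp in WT. A single mouse of each genotype stood far above the others, and the interval of the difference was the widest of the list, -0.46 to 0.64. Aurkb, the kinase of the chromosomal passenger complex, had 1129, 1233, 1166 and 995 bp in MUT and 1151, 1310, 1133 and 1117 bp in WT (log2 difference -0.085, limma adjusted p = 0.600). The percentile of its strongest end peak was 36.1 ± 6.20 in MUT and 48.2 ± 3.12 in WT (SD, n = 4 each; limma adjusted p = 0.123). Top2a and Plk1, a topoisomerase and a mitotic kinase, had log2 differences of 0.087 and -0.14 with overlap.

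The replication genes Pcna, Rrm1 and Rrm2, the sliding clamp and the 2 subunits of ribonucleotide reductase, all lay below 0, from -0.079 for Rrm1 to -0.047 for Rrm2, and the lowest adjusted p was 0.782. The start peak of Rrm1 stood at 98.9 ± 0.429 in MUT and 99.8 ± 0.0966 in WT (SD, n = 4 each).

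**Figure D5:**
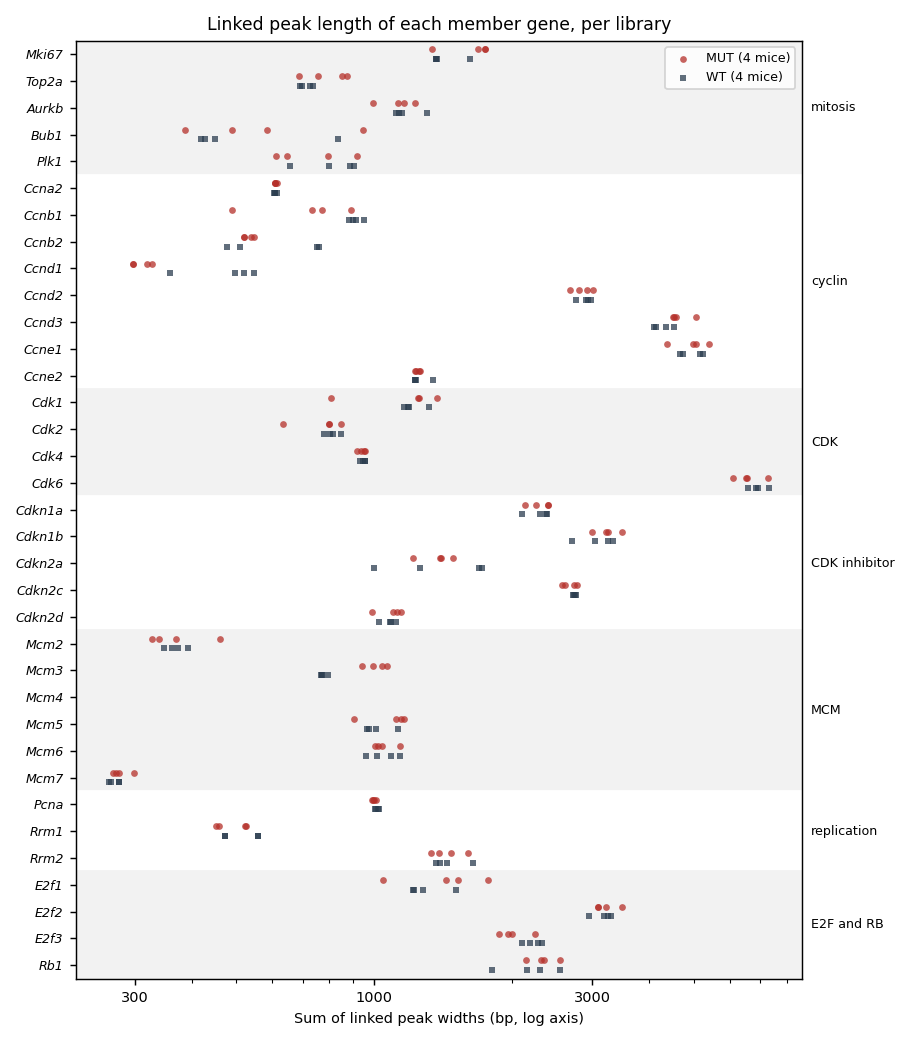
Summed width of the peaks linked to each cell cycle gene (x axis, bp on a log axis, not scaled) in the 4 MUT mice (circles) and 4 WT mice (squares), grouped by role. Lengths run from 264 bp for Mcm7 to 7300 bp for Cdk6. Mcm3 and Ccnd1 are the genes whose groups do not overlap, and the share of all genes was not taken for these lengths.

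Among the E2F and RB genes, E2f3 had 1967, 2253, 2007 and 1879 bp in MUT and 2197, 2284, 2335 and 2110 bp in WT. The groups overlapped through MUT replicate 27 before scaling and not after it (log2 difference -0.17, SE 0.0392, limma adjusted p = 0.152). The length difference lay in a gene-body region 6653 bp from the start (chr13:29978930-29979892), which covered 584, 803, 582 and 588 bp in MUT and 809, 889, 963 and 821 bp in WT (log2 width difference -0.46, limma adjusted p = 0.315). MUT replicate 27 was the one near WT, and without it the width difference was -0.57 (limma adjusted p = 0.0477).

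A second gene-body region of E2f3 (chr13:29964062-29964460) ran the other way in rank, at percentiles 68.3, 67.2, 65.3 and 64.6 in MUT and 54.0, 53.7, 60.4 and 44.3 in WT, without overlap (13.2 points, limma adjusted p = 0.0874). The start of E2f3 stood at 95.0 ± 0.999 in MUT and 95.3 ± 1.09 in WT (SD, n = 4 each). Rb1 had a region between genes (chr14:73339574-73339894) at 39.2, 48.5, 35.2 and 39.5 in MUT and 18.8, 14.5, 32.4 and 28.4 in WT, without overlap (17.1 points, limma adjusted p = 0.0937).

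E2f2 had 3219, 3490, 3090 and 3084 bp in MUT and 3244, 3184, 3296 and 2951 bp in WT, with overlap. Its ends had a peak in 2 libraries alone, MUT replicate 26 and WT replicate 4, while a region in its body (chr4:136189856-136190402) stood at mean percentile 94.5. E2f1 had a log2 difference of 0.077 (limma adjusted p = 0.859) that became -0.40 (limma adjusted p = 0.00540) with the strongest 30000 peaks. Its start region covered 907 bp in MUT and 939 bp in WT on average. A weaker region at its far end (chr2:154558389-154559016) stood at mean percentile 30.2 in MUT and 40.5 in WT. An end of Necab3 lies 6 bp from that end of E2f1. Whether the cut to 30000 peaks removed the far-end peak in some libraries was not tested.

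Regions were also compared one by one. Of the 111 regions 93 (83.8%) had a peak in all 8 libraries, against 68.9% of all consensus regions, and 39 lay at gene ends. By score percentile 0 of the 93 passed limma, and 19 (20.4%) had an unadjusted p under 0.05. Of all 34461 such regions 1.25% passed and 21.0% had an unadjusted p under 0.05. By width 0 passed and 5 (5.38%) had an unadjusted p under 0.05, against 0.0871% and 8.87% of all. At gene ends the percentile was lower in MUT for 28 of 35 regions, with a median difference of -2.26 points, and over all gene ends for 67.2%, with a median of -1.20 points. Away from gene ends it was lower for 26 of 58 (44.8%), with a median of 0.463 points. Over all such regions linked to a gene it was lower for 39.0%, with a median of 1.27 points. Percentiles depend on the whole list, so these differences are relative to the other peaks of each library.

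Regions were unevenly spread over the genes. Cdk6, Ccnd3, Ccne1, E2f2 and Cdkn1b, each with 8 or more regions, were 14.7% of the genes with a region and held 49 of the 111 regions (44.1%), where genes with as many regions were 6.90% of all and held 26.0%.

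The wider pathway was read from a list of 82 other cell cycle genes (origin licensing, replication forks, DREAM subunits, checkpoint and kinetochore genes). Of these 78 were tested, and 0 passed limma, against 0.673% of all genes. An unadjusted p under 0.05 was found for 4 (5.13%), against 11.2% of all genes. The pathway genes lay above 0 in 21 cases and below in 57, with a median of -0.035. Over all genes 6006 lay above and 8253 below, with a median of -0.019. A gene-end peak was called in every library for 64 of the 82 (78%), against 44.0% of all protein-coding genes. Over tested genes the shares were 82.1% and 67.6%. Orc1, Foxm1, Pkmyt1 and Cks1b were not tested. The lowest p-values were those of Cdc7, the kinase that fires replication origins, with 1437 ± 94.4 bp in MUT and 1060 ± 146 bp in WT, and Ccnh, the cyclin of the CDK-activating kinase, with 1029 ± 27.0 bp in MUT and 1188 ± 106 bp in WT (SD, n = 4 each). Their log2 differences were 0.35 and -0.21, with limma adjusted p-values of 0.228 and 0.265. Rfc3 (-0.20), Orc3 (0.32), Espl1 (-0.24) and Lin54 (-0.11) followed, with adjusted p-values of 0.381 to 0.515 by limma.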

How the data were processed

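ATAC-seq peak lists of 8 mice were used, 1 list per mouse and not pooled. The submitters' processing notes name the build GRCm38 (mm10) and, with no order, DiffBind 3.0.12, DESeq2, Bowtie2 2.3.4.1 and Trimmomatic. Which caller and threshold made the peaks, and whether reads were shifted, is not given in the sources used here. Each deposited peak has a score made by the authors, which was used as a rank within its list. A peak's own strength cannot be set across lists otherwise, and no count test could be run. Gene positions came from RefSeq (GRCm38.p6) without strand or exons, promoter windows with strand. Linked length, region percentile and region width were each fitted on the whole table with limma 3.58.1 in R 4.3.3 (moderated test with trend, Benjamini-Hochberg adjustment). The log2 scale with 200 bp added understates changes of genes with short peaks. Python 3.11.15 built the tables, and the code was tested on simulated data. Each mouse is 1 replicate. Widths in bp are not scaled.

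The members, lists and tests were chosen with earlier results of these data known. Genes with values per library were those without overlap between genotypes, with a region of one genotype, among the 3 highest, 3 lowest, 3 longest or 3 shortest, or without a gene-end peak in all libraries. Of other pathway genes the 6 with the lowest p were named, and of regions the 3 with the lowest p in each fit. Ccna2, Ccnd2, Cdkn2a and other genes given beyond this were picked after their values were seen, as examples of their role. The alternatives were another pseudocount, scaling, filter, linking distance, overlap, trend, stronger peaks and each library left out. An alternative in which a peak takes the gene of its merged region was added after seeing the data.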

Additional observations from a re-analysis of the deposited data

Results flagged for a closer look

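A single library stood apart from the other 3 of its genotype in 13 of 129 groups of 4 values of the cell cycle genes. The measure was the gap to its nearest neighbour over the range, with a cutoff that independent normal values pass about 1 time in 20. These values can tie, as at Ccna2, and the groups share genes and libraries. The 13 of 129 therefore cannot be read as more than chance gives. No cause was tested. In linked length, MUT replicate 29 had 1343 bp at Mki67 where the other MUT mice had 1686 to 1748 bp, and WT replicate 4 had 1619 bp there where the other WT mice had 1365 to 1376 bp. The high value of Bub1 in WT was replicate 6, with 835 bp against 420 to 449 bp in the other WT mice. MUT replicate 27 had 5068 bp at Ccnd3 where the other MUT mice had 4505 to 4569 bp. WT replicate 5 had 1345 bp at Ccne2 where the other WT mice had 1228 to 1235 bp. At Mcm3, WT replicate 4 had 796 bp and the other WT mice 768 to 771 bp, all below every MUT value. At Ccna2, MUT replicate 28 had 614 bp and the other MUT mice 609 bp each, a gap of a few bases.

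In the percentile of the strongest gene-end peak, MUT replicate 29 was low at Cdk1 (84.2, other MUT mice 85.7 to 85.9), Cdk4 (58.2, others 59.4 to 59.6) and Rrm2 (60.5, others 67.1 to 68.2). MUT replicate 26 was low at E2f1 (89.8, others 92.9 to 93.5) and Mki67 (76.9, others 83.2 to 83.8). WT replicate 7 was low at Mcm5 (84.6, other WT mice 88.8 to 89.3). MUT replicate 29 was also the library with the least linked length.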

How the results depend on the processing

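Of the 34 tested genes, 18 kept the sign of their length difference under every alternative and 16 did not. With the strongest 30000 peaks of each list, Mcm3 reversed to -0.025, Ccnd3 to -0.029, Cdkn1b to -0.046, Cdkn2a to 0.066 and E2f1 to -0.40. E2f1 then passed in place of Mcm3, 1 pathway gene passed (Gins2, log2 -0.27, limma adjusted p = 0.00652), 1 region passed by percentile (Cdk2), and 0 regions were of one genotype. Without scaling, values near 0 reversed for Ccna2 (0.0027), Cdkn1a (0.0042), Cdkn2d (0.010), Mcm2 (0.0074), Mcm6 (0.0019) and E2f2 (0.022). At a linking distance of 10 kb E2f2 was at 0.0071 and 41 genes passed over all. Mcm3 passed in the other settings that kept all libraries (limma adjusted p = 0.0293 to 0.0486).

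With 1 library left out, 22 to 79 genes passed over all. The number was 29, 45, 35 and 79 on leaving out MUT replicates 26, 27, 28 and 29 in turn. It was 24, 22, 75 and 48 for WT replicates 4, 5, 6 and 7. Of the cell cycle genes 0 to 1 passed, the 1 being Ccnd1 without WT replicate 6. By percentile 0 to 1 regions passed, the start of Top2a without WT replicate 6 (-7.04 points, limma adjusted p = 0.0481). By width 0 to 1 passed, at E2f3 or Ccnd1 as given above. Regions of one genotype were 1 to 2, with 2 without MUT replicate 28 or 29. Length differences that changed sign ran from -0.10 to 0.27 for Bub1, -0.054 to 0.0024 for Ccna2, -0.16 to 0.012 for Cdk1, -0.086 to 0.010 for Cdkn1a, -0.013 to 0.067 for Cdkn1b, -0.19 to 0.051 for Cdkn2a, -0.076 to 0.0060 for Cdkn2d, -0.063 to 0.026 for Mcm2, -0.072 to 0.0038 for Mcm6, -0.023 to 0.030 for Mcm7, -0.082 to 0.0053 for Rrm2, -0.028 to 0.17 for E2f1, -0.034 to 0.013 for E2f2 and -0.023 to 0.11 for Rb1. The cause of these changes was not tested beyond what each setting removes. No paired analysis was possible because the groups share no replicate numbers. Unknown depth limits any reading of a missing peak, the second peak of Mcm3 included.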
